A study of Mus musculus with 6 samples.

Results

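The alpha-defensins are small antimicrobial peptides, and this account covers every gene whose symbol starts with Defa together with the lysozymes Lyz1 and Lyz2 and the metalloproteinase Mmp7. The symbols selected 32 of the 17526 genes in the deposited table: 29 Defa genes, one of them named as a pseudogene (Defa-ps8), and the other 3. RNA came from crypts of the mouse small intestine, the glands at the base of the villi. There were 3 libraries from mice with a floxed Fpr2 gene (Fpr2f/f, called floxed controls here and given the genotype WT in the labels) and 3 from Fpr2VKO mice, which the labels describe as a knockout of Fpr2, a formyl peptide receptor, in the intestinal epithelium. The sources used here do not give the promoter that drives the deletion, the age and sex of the mice or the stretch of small intestine. Fpr2 itself was not analysed here, so the genotype labels were not checked on the targeted gene. No label says whether each library came from its own mouse, so each p-value is set against library-to-library spread that may be only technical. The comparison asks how RNA for the antimicrobial products of the crypt differs when the epithelium lacks Fpr2.

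Alpha-defensins, called cryptdins in the mouse intestine, are made by Paneth cells, the granule-filled secretory cells at the crypt base. They are stored with lysozyme and released into the crypt lumen, where they act on bacteria. In mice, matrilysin, the product of Mmp7, cuts the inactive precursor to the active peptide. Lyz1 encodes the lysozyme of Paneth cells, and Lyz2 encodes the closely related lysozyme of macrophages and other myeloid cells.

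All 29 Defa genes lay in one cluster on chromosome 8, between positions 21025545 and 21735471 of mouse genome build GRCm38 (mm10), with 24 genes on the plus strand and 5 on the minus strand. Mmp7 lay at chr9:7692090-7699585 on the plus strand with 6 exons. Lyz1 (chr10:117287795-117292868) and Lyz2 (chr10:117277541-117282272) were neighbours on the minus strand of chromosome 10, with 4 exons each. RefSeq and GENCODE vM21 both held an entry for 32 of the 32 genes. Each Defa gene had 2 exons, and its transcript was between 279 and 508 bases long.

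The coding sequences fell into a pair of types by their cysteine codons. In 23 of the 28 Defa genes with a coding sequence, the stretch that encodes the peptide held the 6-cysteine spacing of an alpha-defensin. In the other 5 (Defa29, Defa38, Defa39, Defa42 and Defa43, all on the minus strand) there were 11 cysteine codons at other distances. RefSeq lists CRS1C, for cryptdin-related sequence, among the synonyms of Defa29, Defa38 and Defa39. The segments from the first to the last cysteine codon are given here for abundant copies of both types and for Defa35, the member with the smallest adjusted p, since they show how alike the copies are. They are coding DNA from GENCODE vM21 on GRCm38, 5′ to 3′, with cysteine codons in capitals. Each lies within 1 coding exon. Their positions are chr8:21379304-21379381 (plus strand) for Defa2, chr8:21163063-21163140 (plus) for Defa22, chr8:21735285-21735371 (plus) for Defa24, chr8:21065816-21065902 (plus) for Defa35 and chr8:21593490-21593645 (minus) for Defa43.
Defa2: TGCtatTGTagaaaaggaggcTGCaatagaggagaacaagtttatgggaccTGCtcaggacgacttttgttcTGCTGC
Defa22: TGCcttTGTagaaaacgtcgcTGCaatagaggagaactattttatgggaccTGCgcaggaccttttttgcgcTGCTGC
Defa24: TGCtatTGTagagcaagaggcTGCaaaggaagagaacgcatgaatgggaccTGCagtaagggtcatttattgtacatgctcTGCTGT
Defa35: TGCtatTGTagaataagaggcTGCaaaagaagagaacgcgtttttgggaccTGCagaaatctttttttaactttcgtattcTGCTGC
Defa43: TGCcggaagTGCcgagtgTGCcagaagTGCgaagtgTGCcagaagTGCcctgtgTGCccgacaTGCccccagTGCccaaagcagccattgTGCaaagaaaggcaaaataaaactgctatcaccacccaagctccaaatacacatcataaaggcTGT

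Many copies shared these letters exactly. The Defa2 segment was also that of Defa20, Defa32 and Defa33, the Defa35 segment was also that of Defa5, Defa34, Defa36 and Defa37, and the Defa43 segment was also that of Defa42. Defa17 shared its segment with Defa3, and Defa23 with Defa31, which left 18 distinct segments in 28 genes. Defa21 differed from Defa22 by the single substitution T15A, and Defa24 from Defa30 by T70A, counted from 1 at the 5′ end of the segment with the base of the first-named gene first. Over whole coding sequences, 6 of 378 pairs of Defa genes were identical, and the median identity was 81.5%.

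This likeness limits what a 50-base read can tell. The share of 50-base windows of the transcript that occur in no other annotated gene was 0% for Defa2, Defa20, Defa31, Defa32, Defa33, Defa37, Defa42 and Defa-ps8, and 71.9% at most, for Defa24. It was 40.1% for Defa35, 83.9% for Lyz1, 84.6% for Lyz2 and 92.6% for Mmp7. The deposited values are estimated counts: 28 of the 32 genes had values that were not whole in all 6 libraries, against 23.1% of the table. Values of single copies with few windows of their own are therefore uncertain, and sums over copies are given beside them.

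The summed alpha-defensin counts, which do not depend on how reads are split among the copies listed, took 12.0%, 10.6% and 19.2% of all counts in floxed controls 1, 2 and 3. The same sum was 5.65%, 4.76% and 4.28% of the counts of knockouts 1, 2 and 3. The groups did not overlap, floxed control 3 stood above the other controls, and the means were 13.9% ± 4.64 (SD, n = 3) and 4.90% ± 0.695 (SD, n = 3), a share 2.85-fold lower in the knockouts. With 3 libraries against 3, an exact two-sided permutation test cannot give a p below 0.1, so the shares are given with no call. In whole crypts, fewer Paneth cells and less defensin RNA per Paneth cell cannot be told apart.

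Lyz1, the Paneth cell lysozyme, took 3.24%, 2.47% and 4.75% of all counts in the controls and 1.63%, 1.19% and 0.915% in the knockouts. Every knockout lay below every control, and the mean share was 2.81-fold lower. Mmp7, the gene of the activating enzyme, took 0.102%, 0.0828% and 0.126% against 0.0599%, 0.0419% and 0.0347%. These groups did not overlap either, and the mean share was 2.28-fold lower. All 32 genes together made up 17.5% ± 5.81 (SD, n = 3) of the counts of controls and 6.19% ± 1.07 (SD, n = 3) of those of knockouts. Shares of a library depend on one another, so the gene-by-gene values are CPM, counts relative to library size, scaled by the trimmed mean of M-values (TMM), which sets libraries to one another on the bulk of genes.

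**Figure D1:**
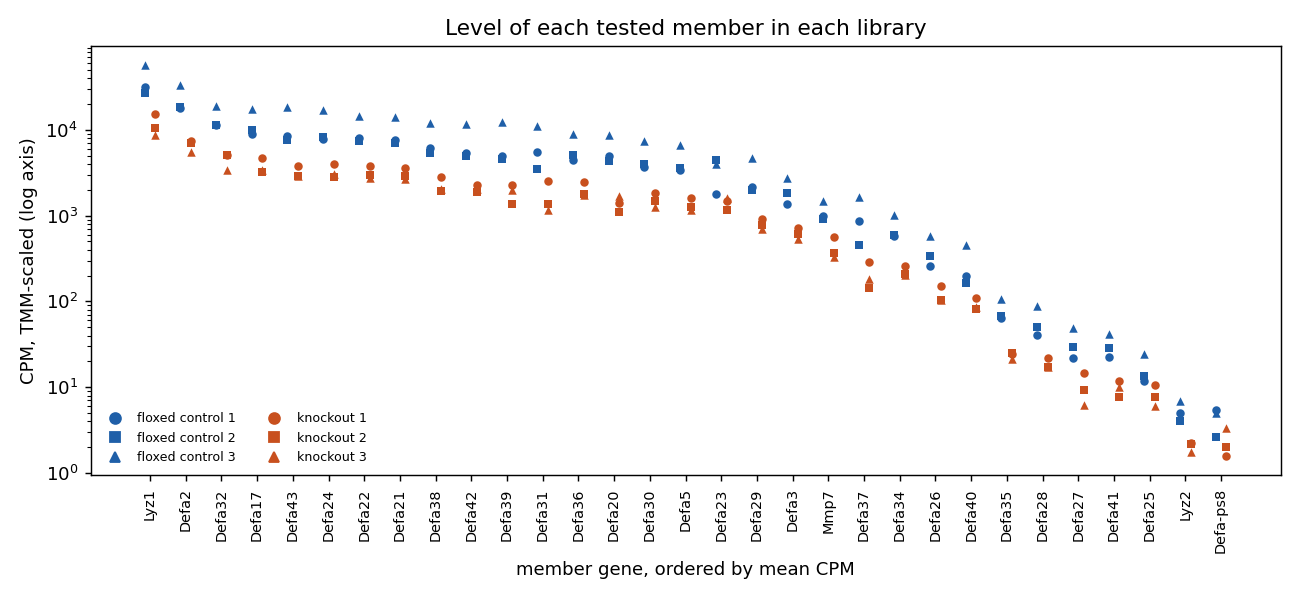
Level of each of the 31 tested members in each library, in TMM-scaled CPM on a log axis, with floxed controls in blue and knockouts in orange and the marker shape giving the replicate number. The orange points lie below the blue points in every row except Defa-ps8, and floxed control 3 is the highest library in 29 of 31 rows.

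Of the 32 genes, 31 had enough reads to be tested, and Defa33, with at most 2.38 reads in a library, did not. The lowest deposited count of a tested member in any library was 28. All 31 stood lower in the knockouts, with log2 fold changes (knockout over floxed control) from -2.27 to -0.90 and a median of -1.72, against a median of -0.01 over all 12943 genes tested. In 30 of the 31, every knockout library lay below every floxed control library, which held for 10.3% of all tested genes. An unadjusted edgeR p under 0.05 with a lower level in the knockouts was found for 31 of the 31 and for 9.63% of all tested genes.

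After Benjamini-Hochberg adjustment over all tested genes, edgeR's quasi-likelihood test called 1 of the 31 at 0.05, Defa35, and 0.00773% of all tested genes as lower (0.0155% in either direction). An adjusted p under 0.1 was reached by 23 of the 31 and by 0.579% of all genes. DESeq2 on the same counts called 28 of the 31 lower, and 2.08% of its genes; the exceptions were Defa31 (adjusted p = 0.0551), Defa25 (0.0651) and Defa-ps8 (0.335). The number that edgeR called depended on single libraries: 10 without floxed control 1, 28 without floxed control 2, 0 without floxed control 3, 0 without knockout 1, 1 without knockout 2 and 0 without knockout 3. Calls over the whole table moved with them: 11 of 13061 genes without floxed control 1 and 955 of 13247 without floxed control 2, against 2 of 12943 with all libraries and at most 2 in each of the other 4 fits. All 31 log2 fold changes were negative in each of these fits, and their median ran from -1.86 to -1.30, the value nearest 0 being that without floxed control 3.

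**Figure D2:**
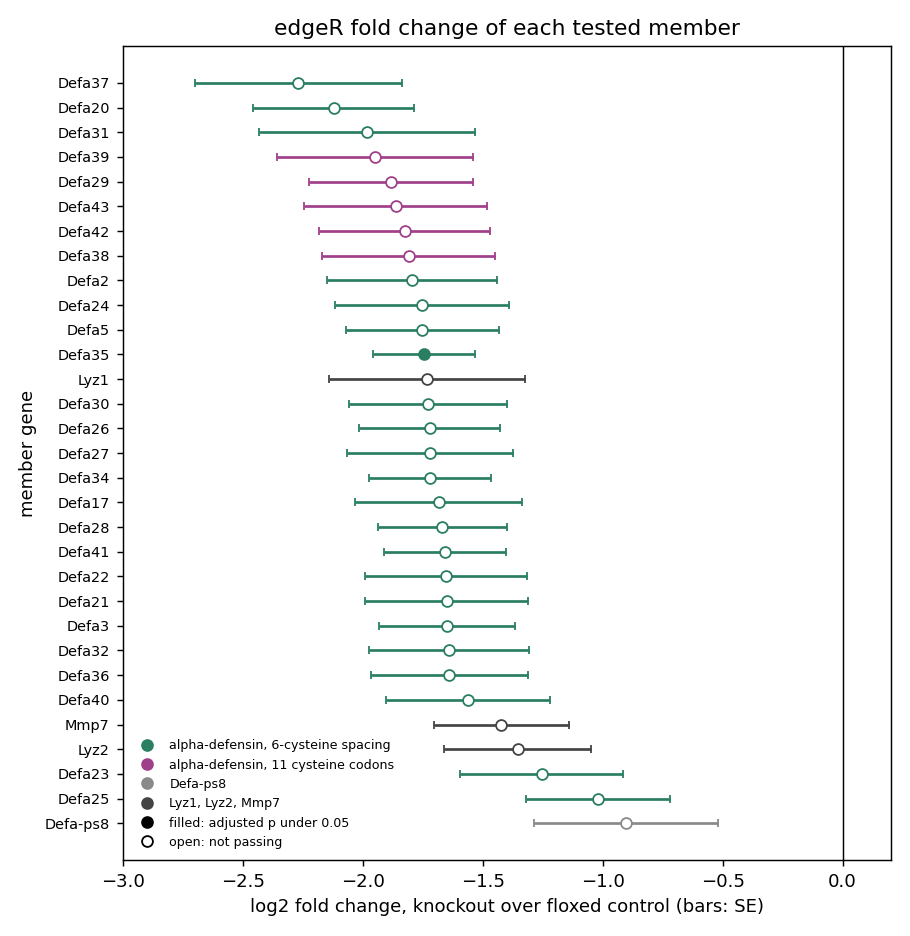
Log2 fold change of each tested member, knockout over floxed control, with bars of 1 SE from edgeR; a filled point marks an adjusted p under 0.05. All 31 points lie below 0, from -2.27 (Defa37) to -0.90 (Defa-ps8), and Defa35 is the only filled one.

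Defa35, which encodes a peptide of the 6-cysteine type, stood at 63.4, 67.3 and 106 CPM in the controls and at 24.5, 24.7 and 21.2 CPM in the knockouts. It fell by 1.75 ± 0.212 (SE) on the log2 scale (edgeR adjusted p = 0.0382, lower in 3 of 3 knockouts than in any control). Its knockout values were close together, with an SD of 1.97 CPM around a mean of 23.5 CPM. The direction held in 17 other settings, with log2 fold changes from -1.87 to -1.44 and adjusted p from 1.33e-09 to 0.247. It was above 0.05 in 7 of the 17: without floxed control 3 (0.131), without knockout 1 (0.0907), without knockout 3 (0.247), with DESeq2 size factors (0.0542), with the members left out of the scaling (0.0594), by limma-voom (0.0683) and with a term for a split by clock genes (0.0613).

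Per kilobase of transcript, Defa2 had the highest level of all members, at a mean of 54441 CPM per kb in the controls and 15701 CPM per kb in the knockouts. Its CPM values were 18025, 18374 and 33177 against 7504, 6964 and 5598, so floxed control 3 was high and the groups stood well apart. The log2 fold change was -1.79 ± 0.355 (SE), and the edgeR adjusted p of 0.0952 did not pass. Defa32, whose segment is the same as that of Defa2, had 11537, 11406 and 19236 CPM against 5086, 5032 and 3414 CPM. Its log2 fold change of -1.64 ± 0.335 (SE; adjusted p = 0.0952) was close to that of Defa2. Floxed controls 1 and 2 were nearly equal for both genes.

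Defa17 came next, with 8899, 9912 and 17704 CPM in the controls and 4693, 3270 and 3419 CPM in the knockouts. Its log2 fold change was -1.68 ± 0.348 (SE; adjusted p = 0.0974). Defa24, the copy with the most windows of its own, stood at 7891, 8353 and 16954 CPM against 3999, 2839 and 3026 CPM. Knockout 1 was the highest knockout for both, and no knockout reached a control. The log2 fold change of Defa24 was -1.75 ± 0.362 (SE; adjusted p = 0.0974), so a copy that reads can largely tell from the others showed a value near the median of the family. Defa22 stood at 7993, 7448 and 14495 CPM against 3839, 2974 and 2719 CPM, at a log2 fold change of -1.65 ± 0.338 (SE; adjusted p = 0.0952).

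Defa43, of the 11-cysteine type, stood at 8526, 7675 and 18616 CPM in the controls and at 3780, 2880 and 2923 CPM in the knockouts. Floxed control 3 stood far above the other controls, and the groups did not overlap. The log2 fold change was -1.86 ± 0.381 (SE; adjusted p = 0.0952). The 5 genes of this type had log2 fold changes from -1.95 to -1.81 with a median of -1.86, and the 22 tested genes of the 6-cysteine type had values from -2.27 to -1.02 with a median of -1.70. Summed by type, the 11-cysteine genes took 3.35% ± 1.45 (SD, n = 3) of all counts in the controls and 1.10% ± 0.149 in the knockouts. The 6-cysteine genes took 10.6% ± 3.20 (SD, n = 3) and 3.80% ± 0.563. The ratio of the first sum to the second was 0.309 ± 0.0396 and 0.291 ± 0.0246 (SD, n = 3 each), and the groups overlapped. The log2 difference was -0.08 (exact two-sided permutation p = 0.6, adjusted 0.8 over 4 ratios). The smallest p of this test with 3 libraries against 3 is 0.1, so no call was possible for any of the 4 ratios.

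Defa37 had the log2 fold change farthest from 0. It stood at 858, 449 and 1640 CPM in the controls and at 286, 145 and 181 CPM in the knockouts. Its controls were uneven, with floxed control 3 highest and floxed control 2 lowest, and the value of -2.27 ± 0.429 (SE) had an edgeR adjusted p of 0.0946. It was -1.65 without floxed control 3, where Defa20, at -1.71, was farther from 0, as it was without knockout 3 (-2.28 against -2.18). No 50-base window of Defa37 was its own, and its coding sequence was identical to that of Defa36, which had a log2 fold change of -1.64. Defa-ps8, an unprocessed pseudogene in GENCODE, was nearest 0 and the only tested member whose groups overlapped. It stood at 5.41, 2.62 and 5.02 CPM against 1.58, 1.99 and 3.36 CPM, knockout 3 lying above floxed control 2. Its log2 fold change was -0.90 ± 0.385 (SE; adjusted p = 0.336).

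The other 16 tested Defa genes had floxed control means from 16.5 to 9575 CPM and knockout means from 8.11 to 3051 CPM. None passed the edgeR test (adjusted p from 0.0680 to 0.188). In 16 of 16 every knockout lay below every control, as it did for 10.3% of all tested genes. Their log2 fold changes ran from -1.95 to -1.02. The value nearest 0 was that of Defa25, at 11.9, 13.5 and 24.1 CPM against 10.6, 7.67 and 6.10 CPM.

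Summing copies gave values like those of single genes. When Defa genes linked by a coding identity of at least 97% were summed before the fit, 11 groups resulted, 7 of them with more than 1 gene. For each of the 11, the share of all counts was lower in every knockout than in every control. How often this held over all features of that fit was not counted. The log2 fold changes of the 11 ran from -1.95 to -1.02. edgeR called 0 of the 11, as it called 0 of all 12927 features in that fit, and 11 had an unadjusted p under 0.05, as did 9.58% of all features with a lower level. DESeq2 was not run on the sums. The sum of all Defa genes was 116403, 115760 and 228714 CPM in the controls and 53754, 42225 and 40328 CPM in the knockouts. Floxed controls 1 and 2 were within 1% of each other, and floxed control 3 stood far above them. Fitted as 1 feature, the sum had a log2 fold change of -1.76 ± 0.391 (SE), which is 3.38-fold lower and is given with no call.

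**Figure D3:**
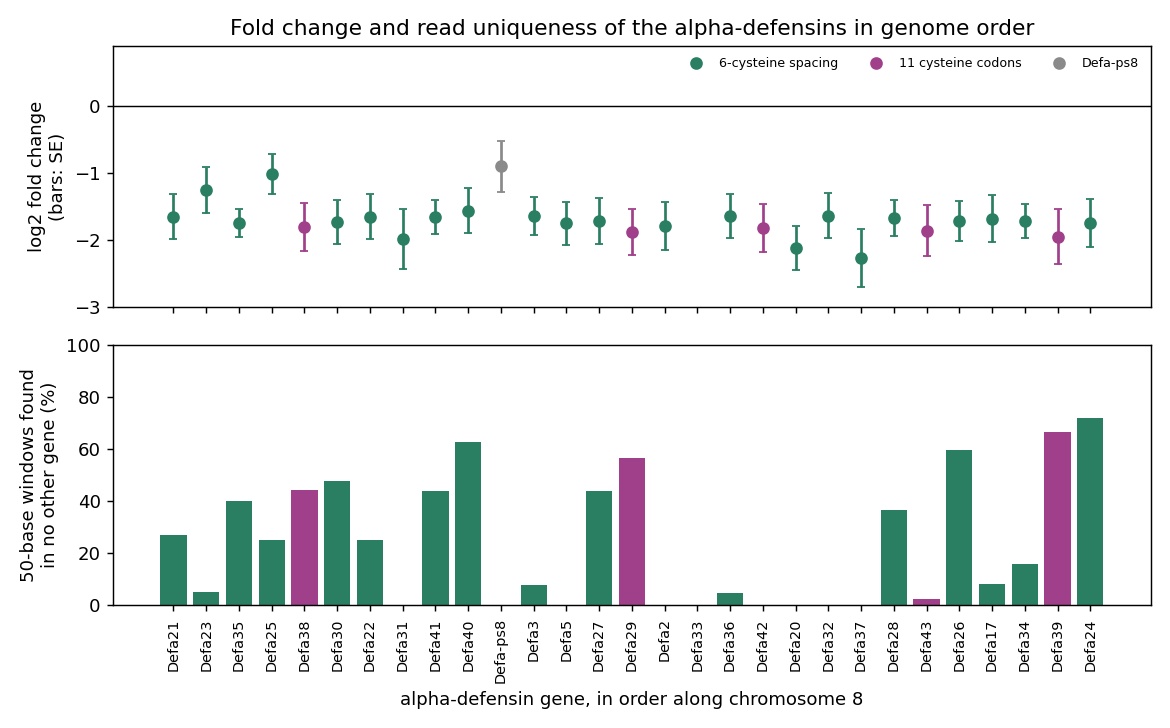
Defa genes in their order along chromosome 8, with the log2 fold change of each tested gene above and the percent of its 50-base windows found in no other gene below. Values from -2.27 to -0.90 occur along the whole cluster, and genes with 0% and with up to 71.9% of windows of their own are interspersed.

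The make-up of the alpha-defensin RNA was compared between groups through the share of each copy in the summed alpha-defensin counts, which does not depend on library scaling. The 18 copies with at least 1% of the sum in a library held at least 98.2% of it. For 15 of the 18, the mean shares of the groups differed by less than 0.2 on the log2 scale. The smallest exact permutation p was 0.1 (smallest adjusted p = 0.84). That is the lowest p this test can give with 3 libraries against 3, so no call was possible and the shares are only described. Defa2 made up 15.3% ± 0.704 (SD, n = 3) of the sum in the controls and 14.8% ± 1.49 in the knockouts. The groups did not overlap for 1 of the 18, Defa21, at 6.25% ± 0.277 against 6.72% ± 0.0798, a difference of 0.10 on the log2 scale.

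The 3 copies whose shares differed most were all among those with few or no windows of their own, and their groups overlapped. Defa23 made up 1.54%, 3.83% and 1.74% of the sum in the controls and 2.78%, 2.79% and 3.99% in the knockouts. Defa20 made up 4.27%, 3.77% and 3.85% against 2.60%, 2.59% and 4.17%. Defa31, identical in coding sequence to Defa23, made up 4.72%, 3.06% and 4.79% against 4.73%, 3.22% and 2.88%. For Defa23, floxed control 2 stood apart from the other controls, and for Defa20, knockout 3 stood apart from the other knockouts.

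In CPM, Defa20 had 4964, 4367 and 8806 against 1396, 1094 and 1680, with a log2 fold change of -2.12 ± 0.335 (SE; adjusted p = 0.0680). Defa31 had 5498, 3543 and 10965 against 2544, 1358 and 1160 (log2 fold change -1.98 ± 0.449 SE; adjusted p = 0.124), and its log2 fold change was -1.39 without floxed control 3. Defa23 had 1789, 4433 and 3990 against 1496, 1178 and 1608 (log2 fold change -1.25 ± 0.339 SE; adjusted p = 0.162). In none of the 3 did a knockout reach a control.

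**Figure D4:**
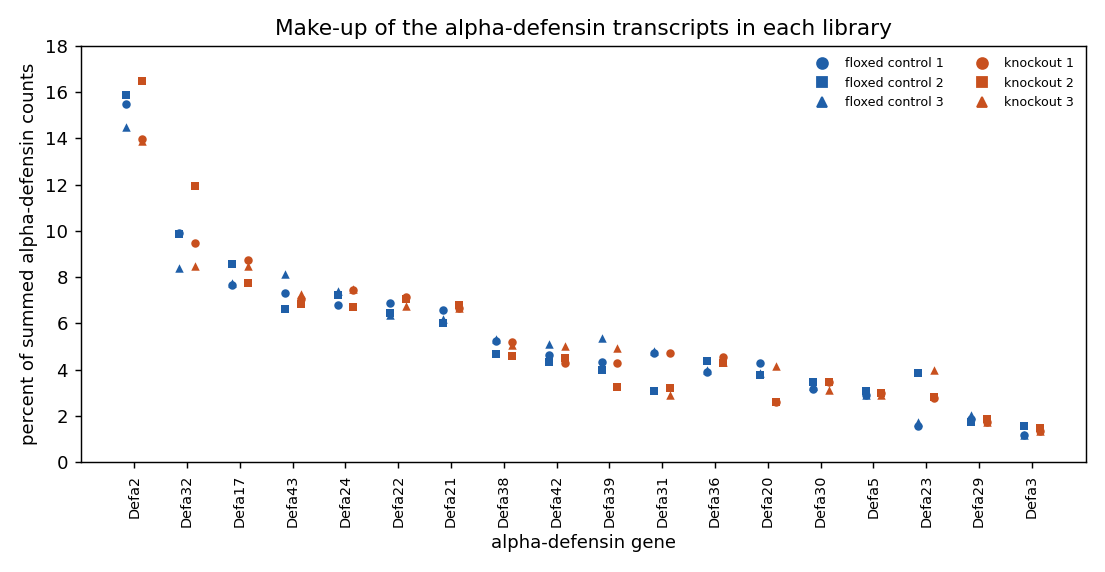
Share of each of the 18 most abundant copies in the summed alpha-defensin counts, in percent, per library, with floxed controls in blue and knockouts in orange. The groups overlap for 17 of 18 copies; Defa21 is the exception, and Defa2 stands highest at about 15.3% and 14.8%.

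Lyz1 stood at 31453, 27020 and 56446 CPM in the controls and at 15471, 10536 and 8623 CPM in the knockouts. The groups did not overlap, but both were spread widely, and the log2 fold change of -1.73 ± 0.408 (SE) had an edgeR adjusted p of 0.131 and a DESeq2 adjusted p of 1.43e-06. Per kilobase of transcript, its floxed control level of 30329 CPM per kb was the fourth of the members, close to Defa17 (30659 CPM per kb) and Defa32 (33081 CPM per kb), whose library values overlapped with it. The ratio of summed alpha-defensin counts to Lyz1 counts was 3.70, 4.28 and 4.05 in the controls and 3.48, 4.01 and 4.68 in the knockouts. The ratios overlapped, with a log2 difference of 0.01 (exact two-sided permutation p = 1, adjusted 1 over 4 ratios).

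Mmp7 stood at 992, 906 and 1502 CPM in the controls and at 570, 372 and 327 CPM in the knockouts, a log2 fold change of -1.42 ± 0.281 (SE; edgeR adjusted p = 0.0952, DESeq2 adjusted p = 1.62e-05). Mmp7 has hardly any sequence in common with other genes, and its counts were whole in all 6 libraries, so its groups are apart with no reads shared among copies. The ratio of Mmp7 counts to summed alpha-defensin counts was 0.00853, 0.00783 and 0.00657 against 0.0106, 0.00881 and 0.00811. It was on average higher in the knockouts, by 0.26 on the log2 scale, but the groups overlapped (exact two-sided permutation p = 0.2, adjusted 0.6).

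Lyz2 was rare, with 30.8 to 70.4 deposited reads per library. It stood at 5.07, 4.0 and 6.89 CPM in the controls and at 2.26, 2.20 and 1.74 CPM in the knockouts. No knockout reached a control, and the log2 fold change was -1.35 ± 0.306 (SE; edgeR adjusted p = 0.124, DESeq2 adjusted p = 0.0192). Its coding sequence was 95.0% identical to that of Lyz1, and 15.4% of its 50-base windows were also in Lyz1, the far more abundant gene. The ratio of Lyz2 to Lyz1 counts was 0.000160, 0.000149 and 0.000123 in the controls and 0.000145, 0.000211 and 0.000200 in the knockouts (log2 difference 0.35, exact two-sided permutation p = 0.3, adjusted 0.6). Of the 14 macrophage markers, Lyz2 included, 7 were tested, 4 of them lower and 3 higher, with a median log2 fold change of -0.02 and 1 with an unadjusted p under 0.05, Lyz2 itself. Their summed level was 39.8 to 62.1 CPM in the controls and 34.7 to 65.4 CPM in the knockouts, and the defining markers Adgre1 and Fcgr1 were at 0 in some libraries. Most of that sum came from genes other than the 4 with the smallest p, which each had at most 6.89 CPM. Among those 4, Lyz2, Tyrobp (-0.84 ± 0.573 SE) and Csf1r (-0.78 ± 0.552 SE) were lower and Cd68 (0.41 ± 0.340 SE) was higher. Of 11 neutrophil markers 3 were tested, with a summed level of 5.42 to 5.94 CPM against 4.42 to 6.43 CPM. The part of other cells or of reads from Lyz1 in the Lyz2 value was not tested.

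**Figure D5:**
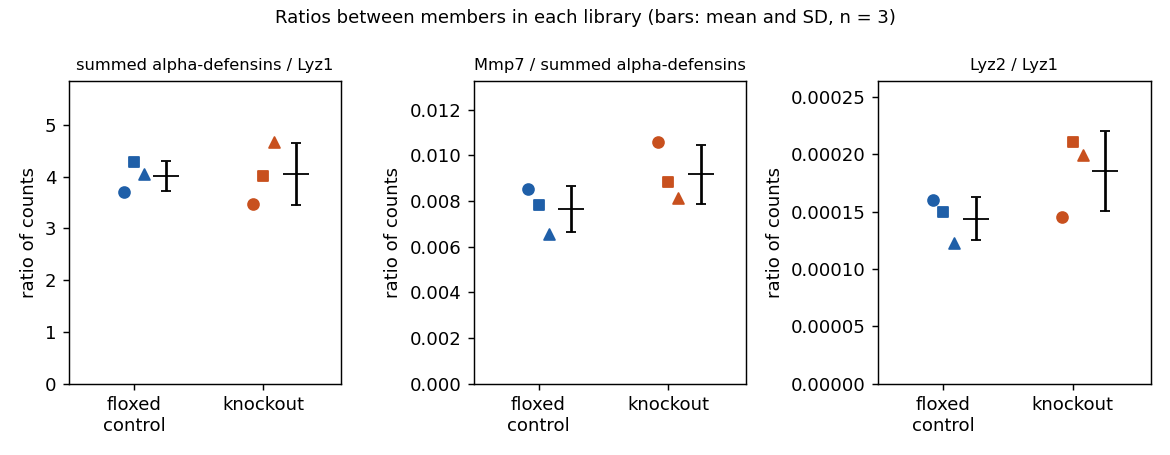
Ratios of counts in each library: summed alpha-defensins to Lyz1, Mmp7 to summed alpha-defensins, and Lyz2 to Lyz1, with floxed controls in blue and knockouts in orange. The groups overlap in all 3 panels.

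Promoters were searched because the members stood lower together. RefSeq windows on GRCm38.p6, from 250 bases before to 50 bases after the start, were matched for 16 of the 29 Defa genes and for Lyz1, Lyz2 and Mmp7. Both strands were searched for ATCAAAG, a form of the core to which TCF/LEF factors of the Wnt pathway bind, for a second form of that core, AACAAAG, and for the TATA box letters TATAAA; these motifs do not overlap one another in the windows printed. ATCAAAG was found in 13 of the 16 Defa windows and in 3.73% of all 32851 promoter windows of that length. TATAAA was found in 15 of 16 and in 13.6% of all, and AACAAAG in 0 of 16 and in 5.85% of all. The 16 Defa windows share sequence, with a median pairwise identity of 72.2% and some pairs identical. They are therefore not independent, and their counts are described with no test. The 150 bases before the start are given for a copy with 2 ATCAAAG matches (Defa2 and Defa35), with 1 (Defa37) and with none (Defa43), and for Mmp7 and Lyz1. They run 5′ to 3′ along the gene with matches in capitals, and lie at chr8:21378367-21378516 (plus strand), chr8:21064888-21065037 (plus), chr8:21565236-21565385 (plus), chr8:21594466-21594615 (minus), chr9:7691940-7692089 (plus) and chr10:117292869-117293018 (minus).
Defa2: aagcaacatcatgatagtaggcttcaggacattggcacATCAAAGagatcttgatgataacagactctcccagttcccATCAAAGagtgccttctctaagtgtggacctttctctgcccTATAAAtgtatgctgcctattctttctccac
Defa35: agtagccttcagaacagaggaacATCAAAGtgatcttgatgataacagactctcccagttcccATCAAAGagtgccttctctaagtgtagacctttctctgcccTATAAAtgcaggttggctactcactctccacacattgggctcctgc
Defa37: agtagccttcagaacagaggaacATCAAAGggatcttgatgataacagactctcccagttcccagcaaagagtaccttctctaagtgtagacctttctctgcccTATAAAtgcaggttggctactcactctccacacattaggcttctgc
Defa43: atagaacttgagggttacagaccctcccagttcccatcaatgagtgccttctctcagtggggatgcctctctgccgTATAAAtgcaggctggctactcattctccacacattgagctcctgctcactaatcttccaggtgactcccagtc
Mmp7: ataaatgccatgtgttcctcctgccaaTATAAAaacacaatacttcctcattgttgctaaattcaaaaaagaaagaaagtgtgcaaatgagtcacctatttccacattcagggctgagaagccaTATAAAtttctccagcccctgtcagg
Lyz1: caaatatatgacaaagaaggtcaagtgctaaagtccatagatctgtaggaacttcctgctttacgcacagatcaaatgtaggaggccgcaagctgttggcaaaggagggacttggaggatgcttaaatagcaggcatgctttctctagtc

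In 9 Defa windows ATCAAAG occurred at 2 places, 40 bases apart in each of the 9, at positions -112 and -72 from the start in Defa2 and at -127 and -87 in Defa35. It occurred at 1 place in Defa28, Defa30, Defa36 and Defa37, and at none in Defa38, Defa42 and Defa43, which are of the 11-cysteine type. The window of Mmp7 printed in part above held TATAAA at positions -123 and -26 from the start and ATCAAAG at position 4. A second RefSeq window of Mmp7, from a start farther along the gene, overlapped the first. It held the same ATCAAAG site, there at position -247, and no TATAAA. The windows of Lyz1 and Lyz2 held none of these letters. The log2 fold changes of the Defa genes ran from -2.12 to -1.25 with 2 matches (9 genes, median -1.66), from -2.27 to -1.64 with 1 (4 genes, median -1.70) and from -1.86 to -1.81 with none (3 genes, median -1.83). The ranges overlapped between 2 matches and none, and the copies in each set share sequence, so the sets are described with no test. The windows of Defa2 and Defa20 were identical, at log2 fold changes of -1.79 and -2.12.

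Other products of Paneth cells and the factors that specify these cells were set beside the members. Of 18 tested Paneth partner genes (other Paneth and secretory products), 17 stood lower in the knockouts, with a median log2 fold change of -0.97. edgeR called 0 of them (12 below 0.05 before adjustment), whereas 9 passed by DESeq2. Over all genes, 9.63% were lower at an unadjusted edgeR p under 0.05, and DESeq2 called 2.08% lower. These shares stand beside the counts of every list below. The smallest p-values were those of Habp2 (-1.41 ± 0.233 SE), of the pancreatic lipase relative Pnliprp2 (-1.84 ± 0.310 SE), of the colipase gene Clps (-1.92 ± 0.325 SE), each at an edgeR adjusted p of 0.0680, and of Nupr1 (-1.13 ± 0.207 SE; 0.0874). Of 20 tested specification genes, 14 stood lower, with a median of -0.49, 0 called by edgeR (10 below 0.05 before adjustment) and 6 by DESeq2. Among them were Wnt3, a Wnt ligand made by Paneth cells (-1.37 ± 0.261 SE; adjusted p = 0.0946), the secretory cell factor Bhlha15 (-1.55 ± 0.314 SE; 0.0952), the surface marker Cd24a (-1.06 ± 0.231 SE; 0.119) and Spdef, a factor of secretory cells (-0.92 ± 0.212 SE; 0.126).

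The other metalloproteinases and their inhibitors had a median of -0.20 over 8 tested genes, 7 of them lower, with 0 called by edgeR (2 below 0.05 before adjustment) and 1 by DESeq2, the inhibitor gene Timp2 (-1.61 ± 0.371 SE; edgeR adjusted p = 0.127). Of 7 beta-defensin genes (Defb), the epithelial relatives of the alpha-defensins, only Defb1 had enough reads to be tested (-1.30 ± 0.655 SE; edgeR adjusted p = 0.411).

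Among markers of other cells, the 10 epithelial markers had a median log2 fold change of 0.06. The 10 goblet cell markers, of the other main secretory type, had a median of -0.72, with 10 of 10 lower. Of these, 8 were below 0.05 before adjustment, 0 were called by edgeR and 3 by DESeq2. The lists are not separate: Muc2, Tff3, Agr2 and Spink4 of the goblet list are also Paneth partners. Spdef of the goblet list and Sox9 of the stem cell list are also specification genes. The 10 stem cell markers had a median of -0.31, with 9 lower, 4 below 0.05 before adjustment, 0 called by edgeR and 1 by DESeq2, Lgr5 (-1.17 ± 0.305 SE; edgeR adjusted p = 0.153). The 12 enterocyte markers had a median of -0.21, with 11 lower, 1 below 0.05 before adjustment and 0 called by either tool. Of 15 T cell markers 14 were tested and 14 stood lower, 12 of them with an unadjusted p under 0.05, 0 called by edgeR and 5 by DESeq2. Their summed level was 313, 81.0 and 255 CPM in the controls and 73.3 to 93.6 CPM in the knockouts, with Cd2 at 0 in some libraries, so floxed controls 1 and 3 stood above all the rest. The 7 tested B and plasma cell markers were also lower in 7 of 7, with 6 at an unadjusted p under 0.05, 0 called by edgeR and 1 by DESeq2. Their summed level overlapped, at 855 to 1324 CPM against 566 to 1124 CPM. Most of that sum came from genes other than the 4 with the smallest p, which each had at most 21.2 CPM. Among those 4, Jchain stood at 21.2, 5.84 and 11.7 CPM in the controls and at 5.87, 4.29 and 1.85 CPM in the knockouts. The part of these cells in the result was not tested. With floxed control 2 as the lone control, the median log2 fold change of the members was -1.28. edgeR then called 8 of 31 members, and 12 of 13327 genes in all, with the lone control assumed to vary as the knockouts do. Of 13 pancreatic acinar markers 5 were in the table and 4 were tested; their summed level of 507 to 1161 CPM against 173 to 252 CPM was nearly all Clps, which is also on the Paneth list, and Ctrl and Cela1 each had a mean of at most 3.40 CPM.

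Libraries also differed on 15 clock genes, whose first principal component set floxed control 2 with knockout 1 and the remaining 4 libraries together. Floxed control 2 and knockout 1 also had the lowest summed level of the enterocyte markers, 5609 and 4617 CPM, against 7514 to 11835 CPM in the remaining 4. The split is therefore not particular to clock genes. Between floxed control 2 and knockout 1, the log2 difference in the alpha-defensin share of counts was -0.90, and among the other 4 libraries it was -1.79, so it was lower in the knockouts on both sides. For Lyz1 the values were -0.60 and -1.93, and for Mmp7 they were -0.47 and -1.58. With the split as a term, edgeR called 0 of the 31 members, with their median log2 fold change at -1.73. Among the other 4 libraries alone it called 29 members, and 920 of 13030 genes in all. The part of this split in the difference between groups was not tested.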

How the data were processed

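RNA from mouse small intestinal crypts (3 floxed control and 3 Fpr2VKO libraries) was sequenced as mRNA with single-end DNBSEQ reads of 50 bases, per the labels' protocols. The authors deposited an estimated count for each gene and library, without normalisation. The submitters' processing notes name mm10; which aligner, counter and annotation were used, and whether strand was, is not given in the sources used here. Totals ran from 11108511 to 16859902 per library, and 31.1% to 35.2% of values were not whole, so values were rounded for the count tests, as the design allowed for. Floxed controls 1 and 3 had the smallest totals, 11108511 and 12075398, and every other library had at least 16542933. The TMM factors were 1.03, 0.914 and 0.842 for floxed controls 1, 2 and 3, and 1.05, 1.13 and 1.06 for knockouts 1, 2 and 3.

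edgeR 4.0.16 (R 4.3.3) was run on the whole table with filterByExpr, TMM scaling, glmQLFit (robust) and glmQLFTest, with Benjamini-Hochberg adjustment over 12943 genes at 0.05. The biological coefficient of variation was 20.3%. Exact permutation tests used scipy 1.17.1, and transcripts were compared with Biopython 1.88. Scripts were tested on simulated data. Alternatives were DESeq2 1.42.0, limma-voom (limma 3.58.1), other scaling and filters, unrounded values, a replicate block and each library left out. Fits to sums of copies within sequence groups and over all Defa genes, and the ratio of 11-cysteine to 6-cysteine counts were added after seeing the data.

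Named in full were Lyz1, Lyz2, Mmp7, the 6 Defa genes with the highest mean CPM, each Defa gene called, those with the largest and smallest change, and the 3 whose share of the sum differed most. Of each list beside them, up to 4 genes with the smallest p were named. Defa25, Defa36 and Defa21 were named after their values were seen. The members and lists were chosen with earlier results of these data known.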

Additional observations from a re-analysis of the deposited data

How the results depend on the processing

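The log2 fold changes of the 31 tested members were negative in every alternative run, and their median ran from -1.99 to -1.28. The number of members that passed did depend on the setting. It was 1 by edgeR, 0 with DESeq2 size factors, 0 with the members left out of the scaling, 0 by limma-voom and 28 by DESeq2. It was 20 of 32 with no filter beyond 1 read, 8 without floxed controls 1 and 3 (a lone control, with the spread taken from the knockouts), 0 with the clock gene split as a term, 29 among the 4 libraries on its larger side, and from 0 to 28 when single libraries were left out. With the replicate number as a block it was 7. The replicate numbers did not pair the libraries, since the correlations of same-numbered deviations were -0.18, -0.27 and 0.07. Calls over the whole table, in either direction, moved with the setting too. They were 67 of 17449 genes with no filter beyond 1 read, 39 of 12943 with the replicate block and 323 of 13727 by DESeq2. An unadjusted p under 0.05 was reached by 29 to 31 of the members in each of these settings, and, with a lower level, by 2.87% to 14.7% of all genes. The median fold change moved to -1.30 without floxed control 3 and to -1.28 without floxed controls 1 and 3. The log2 difference in the ratio of alpha-defensin to Lyz1 counts, 0.01, lay between -0.102 and 0.112 when 1 library was dropped: it was -0.0504 without floxed control 1 and -0.102 without knockout 3, and -0.0907 without floxed controls 1 and 3. That of the 11- to 6-cysteine ratio lay between -0.173 and 0.0110, the latter without floxed control 3, and was 0.0938 without floxed controls 1 and 3. The number of copies whose share of the sum did not overlap between groups was 1 with all 6 libraries and ran from 1 to 7 when 1 library was dropped. Fewer libraries overlap less readily, so these counts are not like for like. The cause was not tested for any of these. With 3 libraries in a group, single copies with few windows of their own are the least certain values.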

Other observations

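Some copies with identical coding sequence had very unequal deposited counts. Defa2 and Defa33, which share their whole coding sequence and have no 50-base window of their own, stood at a mean of 23192 and 0.168 CPM in the floxed controls. Defa20 and Defa32, also identical in coding sequence, had log2 fold changes of -2.12 and -1.64, and Defa36 and Defa37 had -1.64 and -2.27. Among copies under 1% of the sum, Defa25 made up 0.0108% ± 0.000757 (SD, n = 3) of the alpha-defensin counts in the controls and 0.0177% ± 0.00228 in the knockouts, with no overlap; it was named after its values were seen.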
